A study of Mus musculus with 6 samples.

Results

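The SOX transcription factors described here are 10 genes chosen by name, Sox2, Sox3, Sox4, Sox5, Sox6, Sox8, Sox9, Sox11, Sox12 and Sox21, out of 55802 genes listed in tables of FPKM, a read count divided by gene length and library size. RNA came from primary neural stem cells of the subventricular zone of adult C57BL/6 mice, the zone along the lateral ventricles that makes new neurons in the adult. SETD4 OE cells were infected for 24 h with ADV-SETD4-GFP, an adenovirus that carries the methyltransferase gene SETD4 and green fluorescent protein (n = 3). Control cells had a WT genotype and received ADV-GFP, the adenovirus with the fluorescent protein alone (n = 3). Both groups therefore carried an adenovirus and the fluorescent protein. Sox10 was treated only as a neighbour of the family, with the other SOX genes. The labels do not say whether the libraries of a group came from separate mice or cultures. The p-values therefore set the group difference against the spread between these libraries, which may be technical.

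SOX proteins bind DNA through a high-mobility-group (HMG) box, which enters the minor groove and bends the helix, and they usually act beside partner factors. Subgroups are defined by sequence. In the neural lineage of chick and mouse, SoxB1 factors hold cells in a stem or progenitor state and the SoxB2 factor Sox21 counteracts them. SoxC factors act mainly in neuronal differentiation, SoxE factors in gliogenesis and in the stem cells themselves, and SoxD factors, which lack a transactivation domain of their own, modulate the others.

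The stretches of sequence below show what 9 of the 10 genes share. Each line gives the first 27 bases of the conserved HMG-box coding stretch, 5′ to 3′ on the coding strand, from GENCODE M21 transcripts (build GRCm38), and capitals mark bases that differ from Sox2.
Sox2: aggcccatgaacgccttcatggtatgg
Sox3: CgAcccatgaacgcGttcatggtGtgg
Sox21: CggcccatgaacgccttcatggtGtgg
Sox4: CggcccatgaacgccttTatggtGtgg
Sox11: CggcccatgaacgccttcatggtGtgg
Sox5: CgTccAatgaaTgccttcatggtGtgg
Sox6: CgAccAatgaaTgcGttcatggtTtgg
Sox8: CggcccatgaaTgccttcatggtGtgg
Sox9: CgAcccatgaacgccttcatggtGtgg
Over 216 bases from the same start, pairs of the same subgroup were 81.9% to 90.3% identical (4 pairs, median 86.3%), and pairs of different subgroups were 52.8% to 88.0% identical (32 pairs, median 67.6%). The SoxB2 gene Sox21 was 88.0% identical to the SoxB1 gene Sox2 in this stretch.

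Sox4 and Sox11, of the SoxC subgroup, are shown over the whole 216 bases because their transcripts moved in opposite directions. Capitals mark the 21 positions at which the pair differs. The stretches lie in the single exon of each gene, on the minus strand of GRCm38, at chr13:28952626-28952841 for Sox4 and chr12:27342043-27342258 for Sox11.
Sox4: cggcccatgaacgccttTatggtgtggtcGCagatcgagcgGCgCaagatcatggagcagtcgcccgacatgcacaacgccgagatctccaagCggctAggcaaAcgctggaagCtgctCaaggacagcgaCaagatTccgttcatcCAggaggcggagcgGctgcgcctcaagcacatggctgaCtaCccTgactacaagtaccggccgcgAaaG
Sox11: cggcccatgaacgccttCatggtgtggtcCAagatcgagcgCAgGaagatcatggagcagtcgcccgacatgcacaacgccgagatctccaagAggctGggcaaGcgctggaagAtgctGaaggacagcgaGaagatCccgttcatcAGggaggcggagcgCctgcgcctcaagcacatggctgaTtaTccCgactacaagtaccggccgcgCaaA
The pair shared 195 of the 216 bases.

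The libraries held 14924273 to 16045138 reads in SETD4 OE and 16007182 to 18078717 in the controls, recovered from the FPKM values. Setd4 had 296, 346 and 333 FPKM in the SETD4 OE libraries, against 0.952, 0.972 and 1.53 FPKM in the controls. Reads of the viral construct and of the endogenous gene are not separated in that value. All 8 fixed markers of neural stem and progenitor cells were tested, and they summed to 1855 to 1920 FPKM in SETD4 OE and 2265 to 2454 FPKM in the controls. None of 10 microglial markers reached the filter, with sums of 2.31 to 2.54 FPKM in SETD4 OE and 1.09 to 1.32 FPKM in the controls. Control replicate 1 stood apart in its share of mitochondrially encoded reads, with 3.78% against 2.45% in each of the other controls, while SETD4 OE libraries had 3.52% to 3.73%. All 10 SOX genes passed the filter of a mean of at least 1 FPKM, as did 12994 genes in all.

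Most of the family was higher in SETD4 OE. Of the 10 genes, 7 rose (Sox2, Sox4, Sox5, Sox6, Sox8, Sox9 and Sox21), 2 fell (Sox11 and Sox12) and Sox3 did not pass the test, an adjusted p under 0.05 in limma's fit across all genes. Over all tested genes 60.0% changed, 26.0% higher and 33.9% lower, that is 3384 and 4406 genes. With equal sums, upper-quartile scaling or leaving out mitochondrial genes and the 10 most abundant ones, the split turned to 4261, 4405 and 4570 higher and 3351, 3259 and 3049 lower. No SOX gene changed direction under these scalings. The median log2 fold change was 0.40 over the 10 genes and -0.06 over all tested genes. The SETD4 OE and control values did not overlap for 9 of the 10, with 7 higher and 2 lower, against 66.0% of all tested genes, 29.1% higher and 36.9% lower. Without control replicate 1, 6 rose and 2 fell, and the gene that lost its call was Sox2. Fewer cells of a type and less RNA per cell cannot be told apart in bulk RNA. The plots of levels and of fold changes give the values gene by gene.

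**Figure D1:**
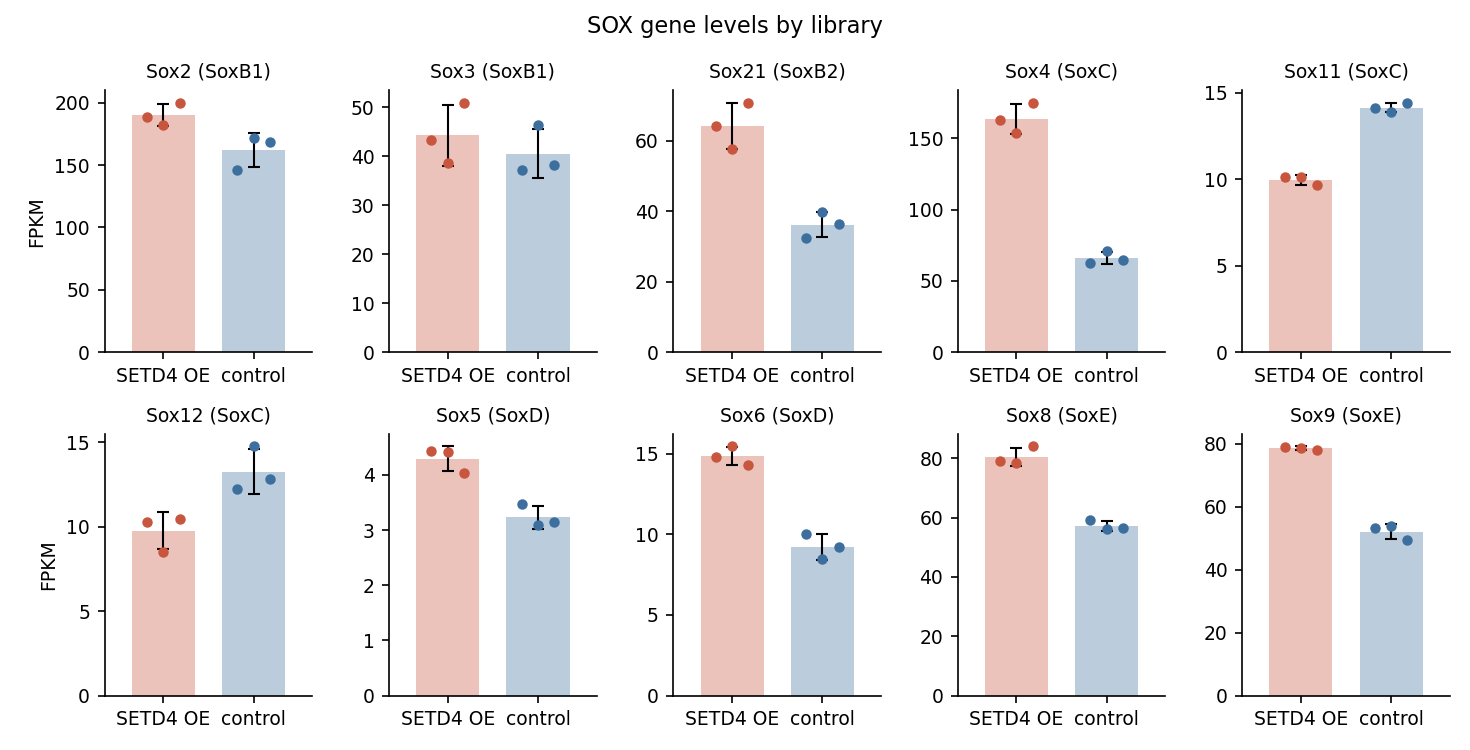
FPKM of the 10 SOX genes, with points for the 3 SETD4 OE libraries (left) and the 3 control libraries (right) of each panel; bars are means and error bars SD. Each panel has its own axis from 0. The groups overlap only for Sox3, and Sox11 and Sox12 are the genes whose SETD4 OE libraries all lie below the controls.

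**Figure D2:**
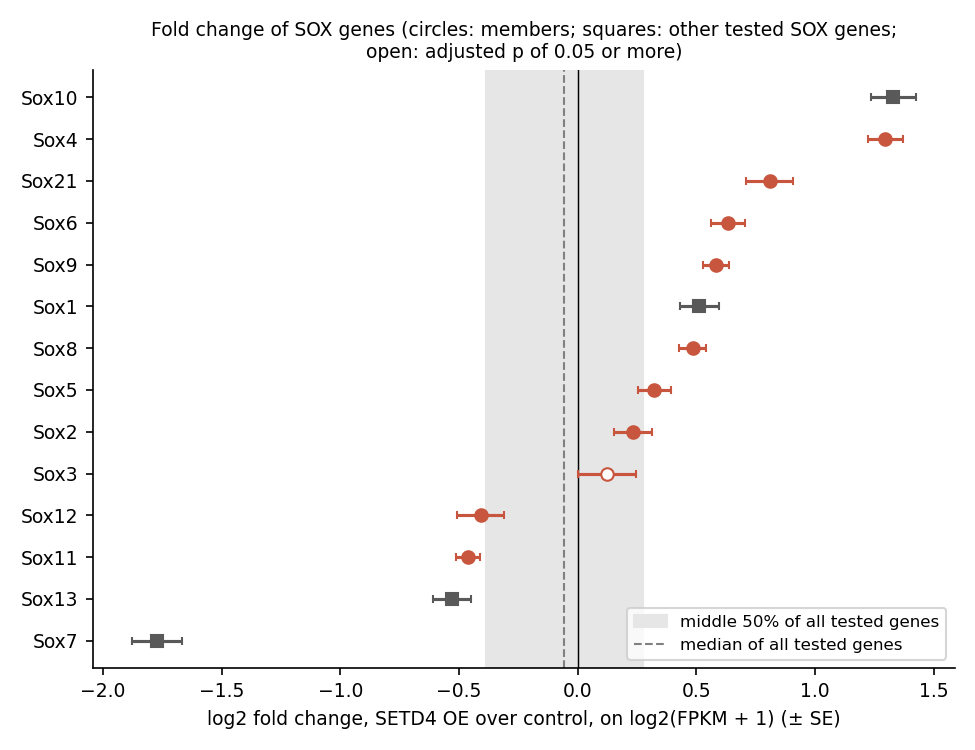
Log2 fold changes of SETD4 OE over control on the log2(FPKM + 1) scale with standard errors, from limma. Circles are the 10 SOX genes, squares the other 4 SOX genes that were tested, and an open symbol did not pass; the grey band holds the middle 50% of all tested genes. Sox4 lies at 1.30 and Sox10 at 1.33, while Sox7 lies at -1.77.

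Among the SoxB1 genes, which maintain neural stem cells, Sox2 was the most abundant gene of the family in every library, and its rise was small. Sox2 (ENSMUSG00000074637; mm39 chromosome 3, 34704554 to 34706610, plus strand) had 189, 182 and 199.7 FPKM in SETD4 OE and 146, 171 and 168 FPKM in the controls. The lowest SETD4 OE value lay 1.06 times above the highest control value, so the groups were separate by a small gap. On the log2 scale the rise was 0.23 ± 0.08 (SE; limma, adjusted p = 0.0399). That call was lost when any library other than control replicate 2 was left out, with adjusted p of 0.0566 to 0.122, and over all alternatives the adjusted p ran from 2.38e-04 to 0.122. Under the 5 other scalings the rise was larger, 0.30 to 0.49 on the log2 scale, and the call held (limma, adjusted p of 2.38e-04 to 0.00988). Sox2 lies inside the longer non-coding gene Sox2ot on the same strand, which held at most 521 reads in a library where Sox2 held 4823 to 6845.

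Sox3, the X-linked relative of Sox2, showed no separation. It had 43.4, 38.6 and 50.9 FPKM in SETD4 OE and 37.1, 46.3 and 38.2 FPKM in the controls, and the ranges overlapped. On the log2 scale the difference was 0.12 ± 0.12 (SE; limma, adjusted p = 0.411). With quantile normalization Sox3 was called higher (0.30, adjusted p = 0.0373), and also when mitochondrially encoded and the 10 most abundant genes were removed before scaling (0.30, adjusted p = 0.0294). Sox1, the remaining SoxB1 gene, averaged 23.4 ± 1.85 FPKM in SETD4 OE and 16.1 ± 1.42 FPKM in the controls (SD, n = 3 each) and rose by a log2 fold change of 0.51 (adjusted p = 0.00157, limma).

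Sox21, the SoxB2 factor, had the largest fold change of the SoxB genes tested. Sox21 (chromosome 14, 118470644 to 118474442, minus strand) had 64.2, 57.6 and 70.6 FPKM in SETD4 OE and 32.5, 39.6 and 36.4 FPKM in the controls. Every SETD4 OE library was above every control, and the mean was 1.77-fold higher. The log2 fold change, 0.81 ± 0.10 (SE; limma, adjusted p = 3.93e-04), was higher than for 93.3% of tested genes. The ratio of Sox2 to Sox21 within a library, which does not depend on library scaling, was 2.94, 3.16 and 2.83 in SETD4 OE and 4.50, 4.33 and 4.62 in the controls. That ratio did not overlap between the groups. The difference on the log2 scale was -0.59 (exact two-sided permutation test, p = 0.1, the smallest that 3 against 3 libraries allow).

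The SoxC genes, which act in neuronal differentiation, split. Sox4 rose, and Sox11 and Sox12 fell. Sox4 (ENSMUSG00000076431; chromosome 13, 29132902 to 29137696, minus strand) had 163, 154 and 175 FPKM in SETD4 OE and 62.5, 71.1 and 64.8 FPKM in the controls, from 4799 to 13964 reads per library. The groups were far apart, with the lowest SETD4 OE library at 2.16 times the highest control. The mean was 2.48-fold higher and the log2 fold change 1.30 ± 0.08 (SE; limma, adjusted p = 1.32e-05), above that of 97.9% of tested genes.

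Sox11 (chromosome 12, 27384263 to 27392573, minus strand) had 10.1, 10.1 and 9.63 FPKM in SETD4 OE and 14.1, 13.9 and 14.4 FPKM in the controls. The libraries of a group lay within a narrow range and the groups did not overlap. Sox11 fell by 0.46 on the log2 scale (SE 0.05, adjusted p = 2.24e-04, limma), a mean 1.42-fold lower. Sox12 (chromosome 2, 152235531 to 152239983, minus strand) had 10.3, 8.50 and 10.5 FPKM in SETD4 OE and 12.2, 14.8 and 12.8 FPKM in the controls. All SETD4 OE values were again below all control values. Sox12 fell by 0.41 (SE 0.10, adjusted p = 0.00954, limma), a mean 1.36-fold lower. The directions of Sox4, Sox11 and Sox12 were the same under each of the 5 other scalings tried.

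Within SoxC, Sox4 stood higher against its relatives in every SETD4 OE library than in any control. The Sox4 to Sox11 ratio was 16.1, 15.2 and 18.1 in SETD4 OE and 4.43, 5.12 and 4.50 in the controls. The Sox4 to Sox12 ratio was 15.8, 18.1 and 16.7 in SETD4 OE and 5.12, 4.82 and 5.05 in the controls. Neither ratio overlapped between the groups, with differences of 1.81 and 1.75 on the log2 scale (exact two-sided permutation test, p = 0.1 each, 0.16 adjusted over the 8 pairs tested). The ratio of Sox11 to Sox12 had a log2 mean of 0.04 ± 0.20 in SETD4 OE and 0.09 ± 0.16 in the controls (SD, n = 3 each), and the groups overlapped. The plot of within-library ratios sets these pairs side by side.

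**Figure D3:**
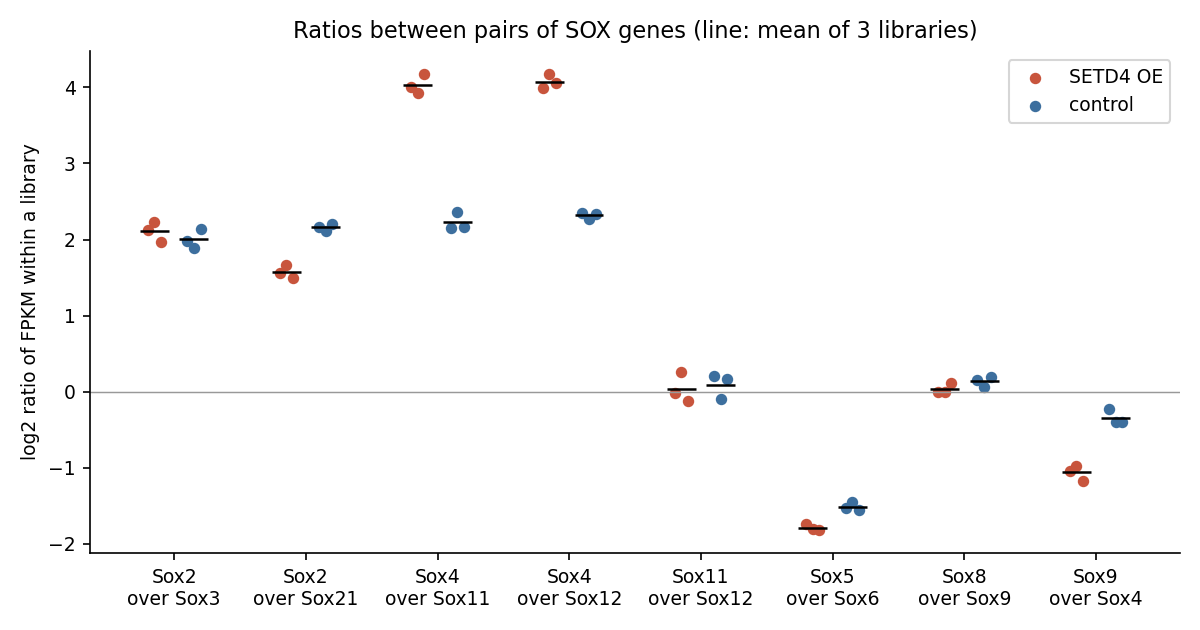
Log2 ratio of FPKM between 2 SOX genes within each library, for 8 pairs, with SETD4 OE left and control right of each position and lines for the mean of 3 libraries. Sox4 over Sox11 and Sox4 over Sox12 lie near 4 in SETD4 OE and between 2.15 and 2.36 in the controls, while Sox11 over Sox12 overlaps between the groups.

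Of the 13 markers of neuroblasts, the migrating cells in which SoxC genes are known to be active, 10 were tested, 5 rose and 2 fell. Of all tested genes 26.0% rose and 33.9% fell. Gad1 among the higher and Gad2 among the lower markers passed the filter through 1 group only. The 13 summed to 39.6 to 45.7 FPKM in SETD4 OE and 32.3 to 35.7 FPKM in the controls, and their part in the SoxC values was not tested.

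The 250 bases before the RefSeq starts of Sox4 and Sox11 are printed because their transcripts went in opposite directions. They are 5′ to 3′ on the minus strand of GRCm38.p6, at chr13:28953700-28953949 for Sox4 and chr12:27342719-27342968 for Sox11, with CCAAT or its reverse complement ATTGG in capitals.
Sox4: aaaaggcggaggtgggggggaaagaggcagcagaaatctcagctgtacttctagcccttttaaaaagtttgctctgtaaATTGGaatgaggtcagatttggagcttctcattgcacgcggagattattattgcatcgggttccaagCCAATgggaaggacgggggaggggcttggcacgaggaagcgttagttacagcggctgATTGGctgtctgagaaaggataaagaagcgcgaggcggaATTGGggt
Sox11: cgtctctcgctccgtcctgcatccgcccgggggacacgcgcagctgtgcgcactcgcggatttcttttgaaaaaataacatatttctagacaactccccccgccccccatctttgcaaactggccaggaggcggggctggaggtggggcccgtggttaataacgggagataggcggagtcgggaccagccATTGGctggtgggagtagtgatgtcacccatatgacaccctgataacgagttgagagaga
Sox4 held CCAAT 4 times, counting both strands, and Sox11 once. At least 1 was found in 33.8% and at least 4 in 0.840% of 32851 mouse promoter windows of this length. Motifs were searched on both strands in 12 windows of 7 SOX genes in the RefSeq table, 6 of them alternative starts of Sox6 and 1 for each other gene; Sox3 and Sox9 had no entry. CCAAT was also found for Sox2 and in 2 of the 6 Sox6 windows. The SOX-type motif AACAAT was found in 1 of the 12 windows, a Sox6 one (9.42% of all mouse windows), and TATAAA likewise in 1 Sox6 window (12.4%). ACAAAG was found for Sox2 and in 5 of the 6 Sox6 windows (16.5% of all), and GGCGGG for Sox2, Sox8, Sox11 and 1 Sox6 window (32.5%). The Sox6 windows belong to 1 gene and are not independent. A motif match describes the letters in the window and is not evidence of binding.

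The SoxE genes, which act in astroglial and oligodendroglial development, rose together. Sox9, which in the mouse brain marks astrocytes and subventricular stem cells, had 79.1, 78.5 and 77.9 FPKM in SETD4 OE and 53.2, 53.7 and 49.3 FPKM in the controls (chromosome 11, 112673050 to 112678586, plus strand). The SETD4 OE libraries were closely spaced and all above the controls. Sox9 rose by 0.58 ± 0.06 on the log2 scale (SE; limma, adjusted p = 1.15e-04), a mean 1.51-fold higher. Sox8 (chromosome 17, 25784866 to 25789660, minus strand) had 79.1, 78.2 and 84.0 FPKM in SETD4 OE and 59.2, 56.0 and 56.5 FPKM in the controls. The groups did not overlap. Sox8 rose by 0.48 ± 0.06 on the log2 scale (SE; limma, adjusted p = 2.97e-04).

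Sox8 overlaps the non-coding gene Cerox1 on the opposite strand over 329 bases, with no strand setting given. Cerox1 held 509 to 660 reads in SETD4 OE and 244 to 332 in the controls, where Sox8 held 3791 to 4362 and 2800 to 3073. Reads of the pair cannot be told apart in the shared bases. The Sox8 to Sox9 ratio was near 1 in every library, from 0.997 to 1.08 in SETD4 OE and from 1.04 to 1.15 in the controls, and its groups overlapped (log2 difference -0.10, exact two-sided permutation test, p = 0.2).

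Sox10, the third SoxE gene, averaged 7.73 ± 0.852 FPKM in SETD4 OE and 2.47 ± 0.262 FPKM in the controls (SD, n = 3 each) and was the SOX gene with the highest log2 fold change among the 14 tested, 1.33 (adjusted p = 2.98e-05, limma). Markers of the glial lineages and of ependymal cells changed too, not all in the direction of the SoxE genes. Over all tested genes 26.0% rose and 33.9% fell. Of 9 astrocyte markers 8 rose, and the 9 summed to 2158 to 2248 FPKM in SETD4 OE and 679 to 718 FPKM in the controls. Gfap was the largest part of both sums, with a mean of 1388 FPKM in SETD4 OE and 321 FPKM in the controls. Aldh1l1, the marker that did not pass, averaged 191 FPKM in SETD4 OE and 199 FPKM in the controls (adjusted p = 0.547, limma). Of 10 markers of oligodendrocyte precursors, Sox10 among them, 7 rose and 3 fell, with sums of 747 to 802 FPKM in SETD4 OE and 1167 to 1304 FPKM in the controls. The 3 that fell were Olig1, Olig2 and Nkx2-2 (log2 fold changes -0.64, -1.40 and -0.71). Olig1 averaged 570 FPKM in SETD4 OE and 888 FPKM in the controls, and Olig2 128 and 339 FPKM. The lower sum was thus carried by Olig1 and Olig2. The 10 markers of oligodendrocytes summed to 85.3 to 92.8 FPKM in SETD4 OE and 43.5 to 46.6 FPKM in the controls. Among those tested, Mbp, Cnp and Cldn11 rose with means above the filter in both groups. Mag (1.63 FPKM in SETD4 OE and 0.570 FPKM in the controls) and Myrf (1.498 and 0.749 FPKM in SETD4 OE and control) were also called higher but passed the filter only through their SETD4 OE values. Markers of ependymal cells, the ciliated lining of the ventricle, were higher as well, with sums of 50.04 to 67.5 FPKM in SETD4 OE and 20.7 to 25.5 FPKM in the controls. Of 6 such markers 5 were tested and 4 rose, among them Foxj1, the regulator of motile cilia (log2 fold change 1.09), and Tppp3 (1.67); Tmem212, also called higher, averaged 0.605 FPKM in the controls and passed only through SETD4 OE. The part of these cell types in the SOX values was not tested.

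The SoxD genes Sox5 and Sox6, which in the mouse spinal cord restrain oligodendrocyte differentiation, also rose. Sox6 (chromosome 7, 115070107 to 115638031, minus strand) had 14.8, 15.4 and 14.3 FPKM in SETD4 OE and 10.04, 8.44 and 9.19 FPKM in the controls. All SETD4 OE libraries were above all controls. Sox6 rose by 0.63 ± 0.07 on the log2 scale (SE; limma, adjusted p = 2.64e-04). Sox5, the least abundant of the 10, had 4.44, 4.41 and 4.04 FPKM in SETD4 OE and 3.47, 3.09 and 3.14 FPKM in the controls (chromosome 6, 143774151 to 144727703, minus strand). These values did not overlap either, and Sox5 rose by 0.32 ± 0.07 (SE; limma, adjusted p = 0.00563).

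Sox5 stood lower against Sox6 in SETD4 OE, with a Sox5 to Sox6 ratio of 0.300, 0.286 and 0.283 in SETD4 OE and 0.346, 0.366 and 0.342 in the controls (log2 difference -0.28, exact two-sided permutation test, p = 0.1). Sox13, the third SoxD gene, went the other way. It averaged 2.72 ± 0.174 FPKM in SETD4 OE and 4.37 ± 0.406 FPKM in the controls (SD, n = 3 each) and fell by 0.53 on the log2 scale (adjusted p = 0.00110, limma).

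The summed level of the family was higher in SETD4 OE, and its composition differed. The summed level of the 10 genes was 657, 627 and 696 FPKM in SETD4 OE and 431, 478 and 453 FPKM in the controls, a mean 1.45-fold higher. Sox4 made up 47.4% of the added FPKM, and without Sox4 the sum was 1.28-fold higher. The share of Sox4 in the sum was 24.8 ± 0.298% in SETD4 OE and 14.6 ± 0.276% in the controls (SD, n = 3 each). The share of Sox2 was 28.8 ± 0.178% in SETD4 OE and 35.7 ± 1.60% in the controls. Shares of Sox8 and Sox9 overlapped between the groups, at 12.2 ± 0.249% and 11.9 ± 0.678% in SETD4 OE and at 12.6 ± 1.03% and 11.5 ± 0.775% in the controls.

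**Figure D4:**
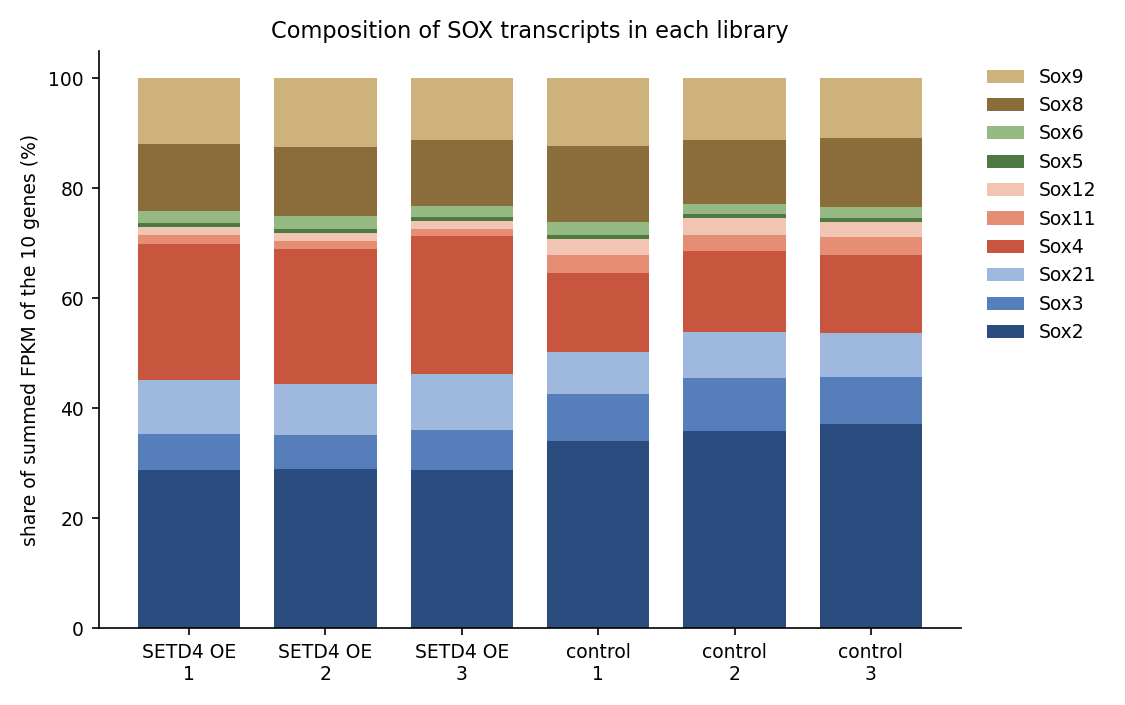
Share of each SOX gene in the summed FPKM of the 10 genes, 1 stacked bar per library, SETD4 OE left and control right. Sox4 takes 24.5% to 25.1% in the SETD4 OE libraries and 14.3% to 14.9% in the controls, and Sox2 28.7% to 29.0% and 34.0% to 37.2%.

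By FPKM, which is scaled to gene length, the order of levels in SETD4 OE was Sox2, Sox4, Sox8, Sox9, Sox21, Sox3, Sox6, Sox11, Sox12 and Sox5. Neighbours whose ranges overlapped were Sox8 with Sox9 and Sox11 with Sox12. In the controls Sox3 stood before Sox21, with overlapping ranges, and Sox11 and Sox12, also overlapping, stood before Sox6. The coefficient of variation within a group ran from 0.767% for Sox9 to 14.0% for Sox3 in SETD4 OE and from 1.87% for Sox11 to 12.4% for Sox3 in the controls. Counting error alone gives 0.891% to 3.79% at the 588 to 13964 reads behind these values, and covers no other source of spread.

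Other SOX genes reached the threshold in 4 of 10 cases, of which Sox1 and Sox10 rose and Sox13 and Sox7 fell. Sox7, a SoxF gene of endothelial cells, had 0.672, 0.780 and 0.6004 FPKM in SETD4 OE and 5.05, 5.24 and 4.02 FPKM in the controls, with no overlap (-1.77 ± 0.11 on the log2 scale, SE; limma, adjusted p = 1.50e-05). Sox7 passed the filter only through the controls. The 9 endothelial markers summed to 1.52 to 1.69 FPKM in SETD4 OE and 4.09 to 4.47 FPKM in the controls, a difference carried by Flt1 (0.618 ± 0.0638 FPKM in SETD4 OE and 3.43 ± 0.148 FPKM in the controls, SD, n = 3 each), the 1 marker that was tested. Flt1, like Sox7, passed the filter only through the controls. Without Flt1 the other 8, Cldn5 at 0 in every library among them, summed to 0.922 to 1.005 FPKM in SETD4 OE and 0.807 to 0.9002 FPKM in the controls. Of 7 mural cell markers 3 were tested, of which Rgs5 was called higher and Acta2 lower. Rgs5 (1.84 FPKM in SETD4 OE and 0.824 FPKM in the controls) passed the filter only through SETD4 OE. Sox14, Sox17 and Sry were listed at 0 throughout, and Sox15, Sox18 and Sox30 reached at most 0.232 FPKM in a library.

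Genes known to work with SOX proteins were mostly higher. Of 9 partners and cofactors, all tested, 6 rose and 1 fell, where 26.0% of all tested genes rose and 33.9% fell. Their log2 fold changes had a median of 0.33 (-0.06 over all tested genes). Nfia, a partner of Sox9 in gliogenesis, averaged 28.2 ± 1.89 FPKM in SETD4 OE and 15.2 ± 0.685 FPKM in the controls (SD, n = 3 each; log2 fold change 0.85). Pax6, which pairs with Sox2 in the chick lens, averaged 6.17 ± 0.369 FPKM in SETD4 OE and 3.66 ± 0.370 FPKM in the controls (0.62). The POU factors, which bind beside SoxB1 proteins, went both ways, with 3 of 5 higher and 1 lower. Pou3f2 (24.7 ± 0.482 FPKM in SETD4 OE and 15.99 ± 0.556 FPKM in the controls), Pou3f4 (18.3 ± 0.976 and 14.4 ± 0.434 FPKM in SETD4 OE and control) and Pou2f1 (2.37 ± 0.0877 and 1.69 ± 0.220 FPKM in SETD4 OE and control) rose, with log2 fold changes of 0.60, 0.32 and 0.33 (limma, adjusted p = 7.26e-05, 0.00276 and 0.0157). Pou3f1 fell, with 1.08 ± 0.235 FPKM in SETD4 OE and 3.91 ± 0.455 FPKM in the controls (log2 fold change -1.24). The abundant Pou3f3 averaged 52.95 ± 5.07 FPKM in SETD4 OE and 53.6 ± 4.35 FPKM in the controls and did not pass (adjusted p = 0.866, limma). Ctnnb1, which encodes beta-catenin, was at 179.5 ± 6.06 and 167 ± 2.17 FPKM in SETD4 OE and control and did not pass (adjusted p = 0.168, limma).

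Genes described as SOX targets went both ways, as did all tested genes, of which 26.0% rose and 33.9% fell. Of 7 SoxB1 targets 6 were tested, 3 rose and 1 fell, and the median of their log2 fold changes was 0.16. Fos, an immediate early gene, rose with 40.9 ± 1.66 FPKM in SETD4 OE and 12.2 ± 0.864 FPKM in the controls, and the growth factor receptor gene Egfr with 36.4 ± 2.86 and 18.995 ± 1.19 FPKM in SETD4 OE and control (log2 fold changes 1.67 and 0.90). Nes, the intermediate filament of neural stem cells, had 45.9, 36.5 and 45.8 FPKM in SETD4 OE and 99.0, 130 and 120.1 FPKM in the controls. Nes thus fell (-1.42 ± 0.13 on the log2 scale, SE; limma, adjusted p = 8.94e-05) while Sox2 was slightly higher. Socs3 and Notch1 did not pass (adjusted p = 0.615 and 0.0748, limma).

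Of 4 SoxC targets 3 were tested. The neuronal tubulin gene Tubb3 rose, with 8.69 ± 1.31 FPKM in SETD4 OE and 5.66 ± 0.665 FPKM in the controls (log2 fold change 0.54). Tead2, a Hippo pathway factor, and Ezh2, a Polycomb methyltransferase, fell (-0.27 and -0.63). Dcx, the neuroblast gene, was under the filter with 1.45 ± 0.112 FPKM in SETD4 OE and 0.533 ± 0.0994 FPKM in the controls (SD, n = 3 each). Of 8 SoxE and SoxD targets 3 passed the filter, and all 3 were called higher; a gene near the filter can pass through the group where it is high. Mmd2, known as a gene downstream of Sox9 and Nfia in the spinal cord, had 73.1, 76.4 and 78.1 FPKM in SETD4 OE and 20.8, 19.1 and 20.6 FPKM in the controls, with no overlap (1.86 ± 0.06 on the log2 scale, SE; limma, adjusted p = 1.59e-06). Pdgfra, the receptor gene of oligodendrocyte precursors, averaged 4.71 ± 0.288 FPKM in SETD4 OE and 1.45 ± 0.202 FPKM in the controls. Zcchc24, also downstream of that pair, averaged 107 ± 1.68 FPKM in SETD4 OE and 82.7 ± 1.31 FPKM in the controls (SD, n = 3 each).

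**Figure D5:**
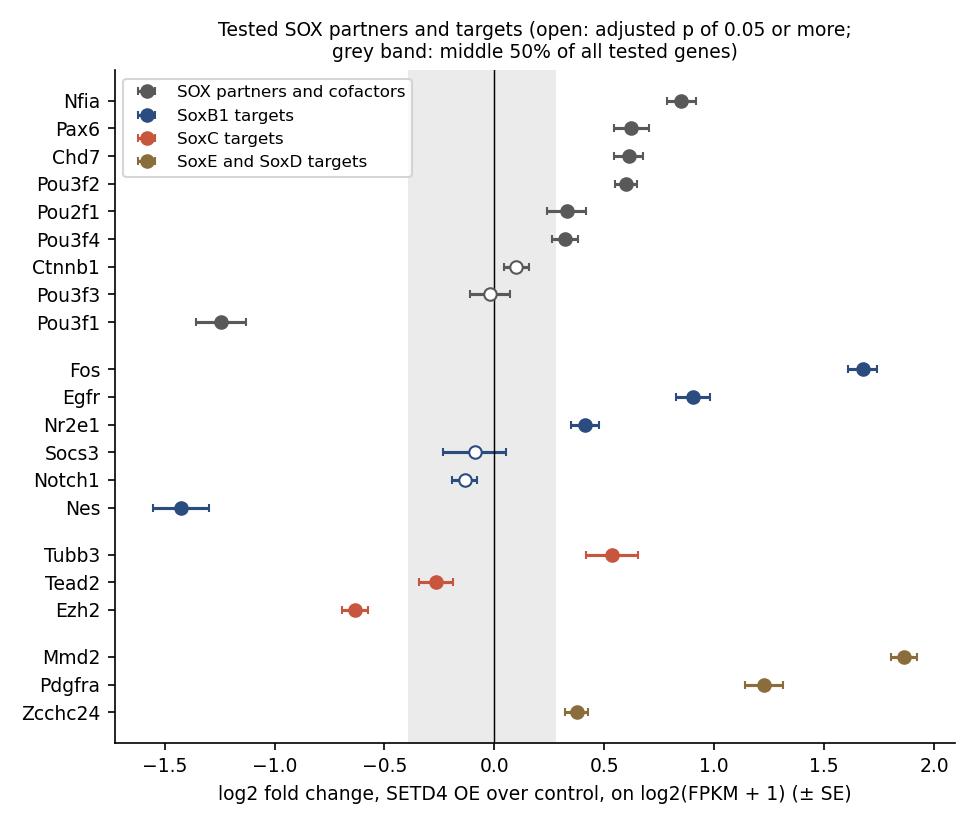
Log2 fold changes with standard errors of the tested SOX partners and SOX targets, SETD4 OE over control on the log2(FPKM + 1) scale; open circles did not pass the test and the grey band holds the middle 50% of all tested genes. Mmd2 at 1.86 and Fos at 1.67 lie at the high end, Nes at -1.42 and Pou3f1 at -1.24 at the low end.

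Across the 6 libraries, the genes whose log2(FPKM + 1) values followed Sox4 most closely were Slc49a4, Ech1 and Aldoc, with Pearson r of 0.9996, 0.999 and 0.9989. Those closest to Sox11 were Brca1, Chst11 and Ddx46, each with r of 0.999. The libraries form 2 groups, so r mainly follows the difference between them, and r was over 0.95 with 1664 other genes for Sox4 and 2080 for Sox11.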

How the data were processed

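RNA-seq values of 6 libraries were used, 3 SETD4 OE and 3 control, grouped by their titles. Alignment was with HISAT2 2.0.5 and the build mm39, per the submitters' processing notes; the counter, annotation release, strand setting and read layout were not stated (not given in the sources used here). Values deposited by the authors were FPKM listed beside gene coordinates and lengths. Multiplying FPKM by gene length gave whole multiples of 1 constant per library for 100% of values (tolerance 0.05 reads). From these, reads per gene and library totals were recovered. The library size that the constant implies was not the recovered total. It lay above that total in SETD4 OE (15788212, 15540792 and 16659558 against 14992763, 14924273 and 16045138). In the controls it lay below (16019194, 17594164 and 15905523 against 16120766, 18078717 and 16007182). The deposited FPKM thus hold a scaling that differs between the groups. Libraries of a group differed by more than counting noise (chi-square of their reads per degree of freedom, 3.89 to 16.3), so none was taken as a repeat deposit of another; this does not show that they came from separate cultures. After a filter at a 6-library mean of 1 FPKM, log2(FPKM + 1) was fitted with limma 3.58.1 (R 4.3.3), using its trend option, two-sided tests and Benjamini-Hochberg adjustment over 12994 genes; genes with adjusted p under 0.05 are called. This scale understates changes of low genes. Ratios within a library were compared by exact permutation over 20 regroupings, in 8 pairs, with a Benjamini-Hochberg adjusted p over the pairs of at least 0.16. Alternatives were other filters, a pseudocount of 0.1, a replicate block, 5 scalings, limma-voom on recovered reads and leaving out each library. Named partners and targets were the called list genes with the largest change, up to 3 per list, and up to 2 that did not pass; Dcx, the other POU genes, the cell type markers named and the SOX genes under the filter were named after their values were seen. Members and lists were chosen with earlier results of these data known. Promoters came from RefSeq (GRCm38.p6) and coding stretches from GENCODE M21 (GRCm38); the sequence of Sox12 is not reported here. Gene coordinates are the authors' own (mm39), a different build from that of the printed sequences. Plots used matplotlib 3.10.9.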

Additional observations from a re-analysis of the deposited data

How the results depend on the processing

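Under 16 alternatives, 6 to 8 of the 10 SOX genes were called higher and 2 lower, and no SOX gene changed direction; leaving out 1 library gave 6 to 7 higher and 2 lower. The calls that moved were those of Sox2 (lost under 7 of 16 alternatives) and Sox3 (gained under 2), and with a mean of at least 5 FPKM Sox5 was not tested. The cause was not tested. Over all genes, 3384 were higher and 4406 lower; with a mean of at least 5 FPKM 1881 were higher, where 8057 genes were tested, and leaving out 1 library gave 2895 to 3316 higher and 3788 to 4524 lower. Scaling moved the median of all genes to -0.0023 to 0.09 on the log2 scale, from -0.06, and the share of called genes that were higher to 49.7% to 59.98%, from 43.4%; the median of the SOX genes was then 0.46 to 0.59, from 0.40. With quantile normalization the difference of the Sox2 to Sox21 ratio was -0.49 and that of the Sox5 to Sox6 ratio -0.42, each in the same direction as before. The labels do not say that same-numbered libraries share an animal, batch or day, so the numbers are not taken as pairs. Same-numbered libraries deviated from their group means with correlations of -0.07, -0.23 and 0.08. Between libraries of unlike number the correlations ran from -0.25 to 0.30. With 3 libraries per group these correlations cannot decide whether the numbers mark pairs. With the replicate number as a block, 2993 genes were higher and 3948 lower, Sox2 had an adjusted p of 0.0805 in limma, and the Sox4 to Sox11 difference stayed at 1.81 (exact sign-flip permutation, p = 0.25, the smallest 3 pairs allow). With 3 libraries per group, ratios cannot reach an exact p below 0.1.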
